A study of Homo sapiens with 8 samples.

Results

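The MCM helicase and origin licensing genes comprised MCM2, MCM3, MCM4, MCM5, MCM6, MCM7, ORC1, CDC6, CDT1 and PCNA, 10 of the 19794 protein-coding genes that GENCODE release 44 places on GRCh37. They were chosen by name, and all 10 were found in the annotation, each taken as its longest protein-coding isoform. RNA polymerase II (RNAPII) was mapped by ChIP-seq in MDA-MB-453, an established human breast cancer cell line, after 4 h with vehicle (0 nM) or with 600 nM of the CDK9 inhibitor CDDD11-8, which the labels write as D11-8. Each treatment had 2 ChIP libraries, from consecutive passages of this one cell line, and each was set against an input library during peak calling. The experiment addressed how inhibition of CDK9, the kinase that releases paused RNAPII into elongation, redistributes RNAPII along genes.

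Licensing prepares DNA for replication before S phase. The origin recognition complex, of which ORC1 is a subunit, marks origins, and CDC6 and CDT1 then load the ring of MCM2 to MCM7, the helicase that later unwinds the DNA. PCNA acts after licensing, as the sliding clamp that holds DNA polymerases on the template. Many of these genes are textbook targets of E2F transcription factors, which drive their transcription as cells pass from G1 into S phase.

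The promoters are shown first, since all results are read outwards from them. The E2F consensus was searched only in the forms TTCGCGC and TTGGCGC, on both strands. The window ran from 300 bases before to 50 bases after the transcription start site (TSS) of the Ensembl canonical isoform. Such a match was present in 7 of the 10 promoters (MCM2, MCM3, MCM5, MCM6, MCM7, CDC6 and ORC1), against 7.50% of all 19794 promoters. With the longest isoforms, 5 of the 10 promoters held it, against 7.11% of all promoters and 10.7% of those with an RNAPII peak in every library. A match is a run of letters and not a measured binding site. Other forms of the E2F site were not searched, so a promoter without a match may still hold one of those. The 7 promoters with a match are printed 5′ to 3′ from GRCh37 on the strand of the gene, with the matching letters in capitals. For MCM5, MCM6, MCM7 and ORC1 the 200 bases before the TSS are given, and for MCM2, MCM3 and CDC6, whose match lies at the start itself, 30 bases across it.
MCM2, chr3:127317244-127317273, plus strand: acgtgaaccacttTTCGCGCGAAacctggt
MCM3, chr6:52149521-52149550, minus strand: ggaagttTTCGCGCcggggtggagtcatcc
MCM5, chr22:35795933-35796132, plus strand: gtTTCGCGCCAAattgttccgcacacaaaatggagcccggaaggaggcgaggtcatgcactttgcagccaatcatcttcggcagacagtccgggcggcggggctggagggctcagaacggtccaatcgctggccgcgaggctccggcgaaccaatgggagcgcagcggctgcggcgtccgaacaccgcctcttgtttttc
MCM6, chr2:136634014-136634213, minus strand: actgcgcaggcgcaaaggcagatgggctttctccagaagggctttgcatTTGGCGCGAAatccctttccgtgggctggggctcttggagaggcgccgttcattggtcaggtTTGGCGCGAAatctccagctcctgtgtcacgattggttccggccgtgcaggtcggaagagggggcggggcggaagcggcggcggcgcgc
MCM7, chr7:99699021-99699220, minus strand: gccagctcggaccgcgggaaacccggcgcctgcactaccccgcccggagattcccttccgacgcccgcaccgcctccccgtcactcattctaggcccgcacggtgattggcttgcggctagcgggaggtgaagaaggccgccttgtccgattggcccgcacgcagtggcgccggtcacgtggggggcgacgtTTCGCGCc
CDC6, chr17:38444121-38444150, plus strand: cgctgtggccattcggatTTGGCGCgagcg
ORC1, chr1:52870096-52870295, minus strand: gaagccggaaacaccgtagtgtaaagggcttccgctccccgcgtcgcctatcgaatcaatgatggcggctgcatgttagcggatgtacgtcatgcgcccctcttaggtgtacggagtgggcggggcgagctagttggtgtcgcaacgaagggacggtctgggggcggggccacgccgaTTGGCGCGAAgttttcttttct

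MCM6 carried the same 10 bases, TTGGCGCGAA, at 2 places, which begin at positions -151 and -89 with the first transcribed base as 0. ORC1 carried them once, beginning at position -22. In each of these runs, and in those of MCM2 and MCM5, the matches on the 2 strands overlap, so that 1 run counts as 2 matches. The last match of MCM7 runs past the TSS and is printed only in part. The CCAAT box (CCAAT), a common element of cell cycle promoters, was present in 8 of the 10 canonical promoters, against 39.5% of all. The CHR element (TTTGAA or TTCGAA) was in 1 of the 10, against 15.6%, and the E-box CACGTG in 2 of the 10 (MCM2 and MCM7), against 9.72%.

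The deposited lists held 78306 and 57493 peaks for the vehicle libraries and 25897 and 21842 for the CDDD11-8 libraries, with between 10213 and 10662 genes having a promoter peak in a library. Peaks covered 108 and 87.3 Mb in vehicle and 67.7 and 54.6 Mb with CDDD11-8, so less of the genome lay in a peak with CDDD11-8, and counts of members are given beside the share over all genes. Sequencing depth is unknown, as a peak list gives no read totals. All 10 markers of luminal breast epithelium examined, among them KRT8, GATA3 and ERBB2, had a promoter peak in every library, and none of the 5 basal markers had one in any. A gene is called lower or higher here where both CDDD11-8 libraries lay on one side of both vehicle libraries. The exact two-sided permutation p of such a gene is 0.333, which is the smallest that 2 against 2 libraries allow, so no single difference could pass a threshold. In bulk chromatin, RNAPII leaving a gene in every cell and in a share of the cells cannot be told apart.

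All 10 genes had an RNAPII peak within 300 bp of the TSS in all 4 libraries, which was the case for 49.0% of all genes. The strongest summits near the TSS of the canonical isoform lay at similar places under both treatments for several members. In CDC6, the summit lay 61 and 72 bp after the TSS in the vehicle libraries and 87 and 71 bp after it with CDDD11-8 in a non-coding part of an exon. In MCM3, it lay 105 and 67 bp after the TSS in vehicle and 120 and 127 bp after it with CDDD11-8, in an exon in every library. ORC1 had its summit at -55 and -34 bp from the TSS in vehicle and at 7 and 18 bp with CDDD11-8, further downstream without overlap. Not every member kept a single place. In MCM7, the summit lay at -507 and -527 bp in vehicle and at 624 and 73 bp with CDDD11-8, further downstream without overlap. The vehicle summits lay near the start of the longest MCM7 isoform, 543 bp upstream of the canonical one, in the region where the gene AP4M1 also starts. In MCM6, the summit lay 142 and 110 bp after the TSS in vehicle and 162 and 569 bp after it with CDDD11-8. The strongest summit of MCM4 lay at -779 and -786 bp in replicate 1 of vehicle and of CDDD11-8, next to the start of the divergent gene PRKDC. In replicate 2 of both, it lay within 20 bp of the TSS.

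The promoter peak was wider with CDDD11-8 in 6 of the 10 genes and narrower in 1, while 64.4% of all genes with one in all 4 libraries had a wider one and 9.42% a narrower one. Among the helicase subunits, the peak of MCM4 measured 4347 and 4956 bp in vehicle and 7143 and 6046 bp with CDDD11-8. That of MCM6 measured 2244 and 2462 bp in vehicle and 3866 and 3558 bp with CDDD11-8, and that of MCM2 3724 and 3008 bp against 4224 and 4785 bp. In each of these subunits both CDDD11-8 values exceeded both vehicle values. MCM5 had the only narrower peak, at 41761 and 6292 bp in vehicle and 5629 and 3917 bp with CDDD11-8. The first of these values is a single region that ran from the MCM5 promoter through the gene and beyond its end. MCM3, MCM7 and CDT1 overlapped between treatments in width.

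Of the loading factors, CDC6 had a promoter peak of 3294 and 1918 bp in vehicle and 4239 and 3647 bp with CDDD11-8. ORC1 had one of 4167 and 3604 bp in vehicle and 4743 and 4863 bp with CDDD11-8. Both were wider without overlap. The side on which the peaks were longer differed. The downstream edge lay further into the gene in 4 of the 10 (MCM6, CDC6, ORC1 and PCNA), against 59.3% of all genes, whereas in MCM2 it lay nearer to the TSS, at 2292 and 2389 bp in vehicle and 2111 and 1984 bp with CDDD11-8. The upstream edge of MCM2 lay further out instead, at -1431 and -618 bp in vehicle and -2112 and -2800 bp with CDDD11-8, towards the divergent gene TPRA1. The 6 of 10 with a wider peak were a share close to that of the genome, and the call depends on how peaks are joined. With peaks within 1 kb of each other joined, 2 of the 10 were wider (MCM2 and PCNA) and 5 narrower (MCM4, MCM5, CDC6, CDT1 and ORC1), so that MCM4, CDC6 and ORC1 went from wider to narrower without overlap.

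The strength of a promoter was read as the percentile of its fold enrichment within one list, among the 9701 genes whose promoter had a peak in all 4 lists. This was done because pileup, from which fold enrichment is formed, is scaled differently from list to list. A percentile is a rank among promoters, so it cannot show a rise or fall that most promoters share. The paper reports a global rise of RNAPII enrichment over promoters with the inhibitor, which these ranks neither show nor exclude. Of the 10 genes, 1 stood higher with CDDD11-8 and 2 lower, against 23.6% and 24.0% of all genes. MCM5 stood at percentiles 67.4 and 67.5 in vehicle and 33.0 and 42.7 with CDDD11-8. CDC6 stood at 75.2 and 66.9 in vehicle and 66.3 and 59.6 with CDDD11-8. The MCM5 promoter thus ranked lower among promoters by more than its replicates differed while remaining occupied. The CDC6 groups were nearly in contact. A lower rank is not a loss of RNAPII. The promoter fold enrichment of MCM5 was 7.95 and 10.4 in vehicle and 21.0 and 15.9 with CDDD11-8. How far the scaling of the lists enters these fold values was not tested. In vehicle replicate 1, the value of MCM5 is the highest of the whole region that spans the gene. Apart from PCNA, which depends on the isoform, the other promoters overlapped between treatments. MCM7 held percentiles of 92.9 and 91.7 in vehicle and 93.0 and 86.9 with CDDD11-8, and CDT1 held 86.8 and 93.6 against 93.3 and 85.4. These values too are the highest of long regions, with the strongest summit 7746, 13004, 12967 and 616 bp after the TSS in MCM7. In CDT1 it lay 8087, 5504, 8038 and 7778 bp after it, vehicle libraries first in both genes. Within 1 kb of the TSS, the percentile of the highest summit was 75.5 and 87.5 in vehicle and 80.2 and 88.7 with CDDD11-8 in MCM7. In CDT1 it was 58.9 and 85.6 against 56.1 and 79.4. ORC1 shows the limit of 2 replicates, with percentiles of 95.6 and 36.1 in the vehicle libraries alone and 46.2 and 47.6 with CDDD11-8.

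**Figure D1:**
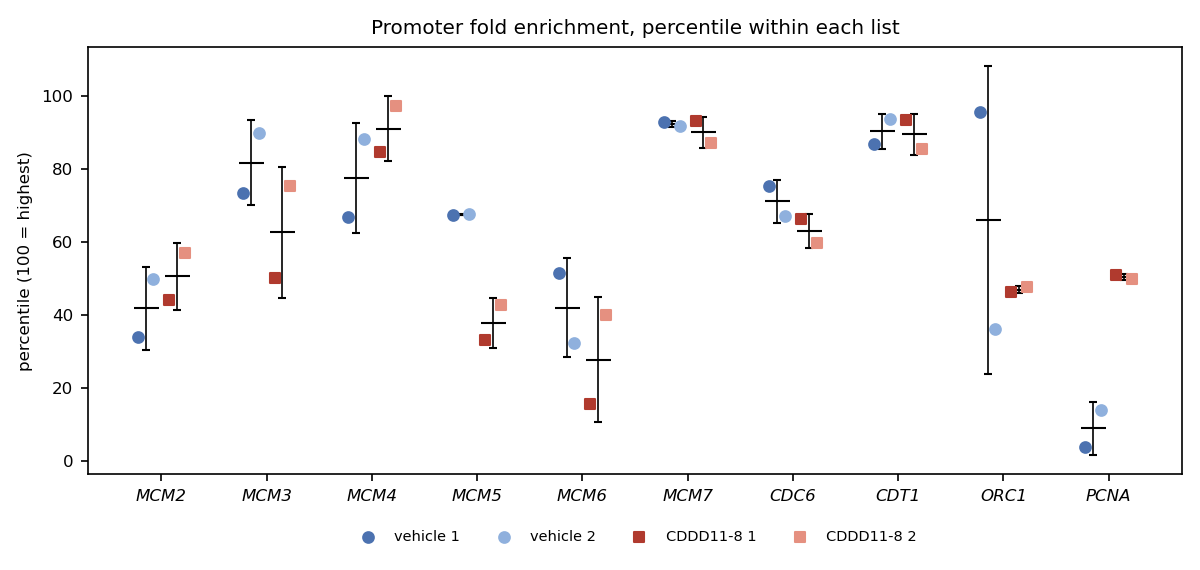
Percentile of promoter fold enrichment within each list (vertical axis, 100 being the highest) for the 10 genes, with 1 point per library and the mean and SD of the 2 libraries of each treatment as bars. MCM5 lies lower with CDDD11-8, PCNA (longest isoform) lies higher, and most other genes overlap.

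The gene body gave a different picture from the promoter. Coverage is the percent of bases inside a peak, and the gene body was taken to begin 300 bp past the TSS and to end 3 kb past the transcription end site (TES). It was lower with CDDD11-8 in 7 of the 10 genes (MCM2 to MCM6, CDC6 and ORC1), against 45.3% of the 9602 genes tested, and higher in 1 (PCNA), against 21.5%. The median difference over the 10 genes was -26.6 percentage points, and over all genes -2.11. The 10 genes also had more coverage to lose. Their vehicle medians were 82.3% and 70.9%, against 18.5% and 13.4% over all genes. Of the 10, MCM3, MCM5 and CDC6 lie at least 3 kb from any other protein-coding gene, and all 3 were lower, against 44.9% of such genes.

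A wide promoter peak reaches into a gene, so the stretch between 2 kb past the TSS and the TES was measured on its own. It was lower in the same 7 of the 10 genes, against 42.2% of all genes. MCM2 (chr3:127317254-127341279, plus strand) was covered over 54.8% and 38.7% of this stretch in the vehicle libraries and over 0.508% and 0% with CDDD11-8. MCM3 (chr6:52128812-52149679, minus strand) was covered over 87.8% and 85.4% in vehicle and 8.69% and 4.595% with CDDD11-8. MCM4 (chr8:48873496-48890720, plus strand) was covered over 92.8% and 79.3% in vehicle and 7.61% and 3.88% with CDDD11-8. These subunits went from mostly or partly covered to nearly bare, and the groups stood far apart.

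MCM5 (chr22:35796133-35821424, plus strand) was covered from 2 kb to the TES over 100% and 67.5% in vehicle and 8.17% and 0.206% with CDDD11-8. MCM6 (chr2:136597196-136634013, minus strand), the longest of the helicase genes at 36.8 kb, was covered over 32.4% and 36.9% in vehicle and 2.22% and 0.336% with CDDD11-8. As means and SD of 2 libraries, coverage of this stretch was 86.6% ± 1.71 against 6.64% ± 2.89 in MCM3, 86.0% ± 9.54 against 5.74% ± 2.63 in MCM4 and 83.8% ± 22.95 against 4.19% ± 5.63 in MCM5. Among the 9208 genes tested, 1.02% to 1.13% had a larger drop in this mean than these 3 subunits. For MCM2 it was 8.51% and for MCM6 13.9%. A drop cannot exceed the coverage in vehicle, and most genes had little of it to lose. The vehicle medians of this stretch were 9.20% and 5.09% over all genes, against 81.3% and 70.9% over the 10 genes.

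**Figure D2:**
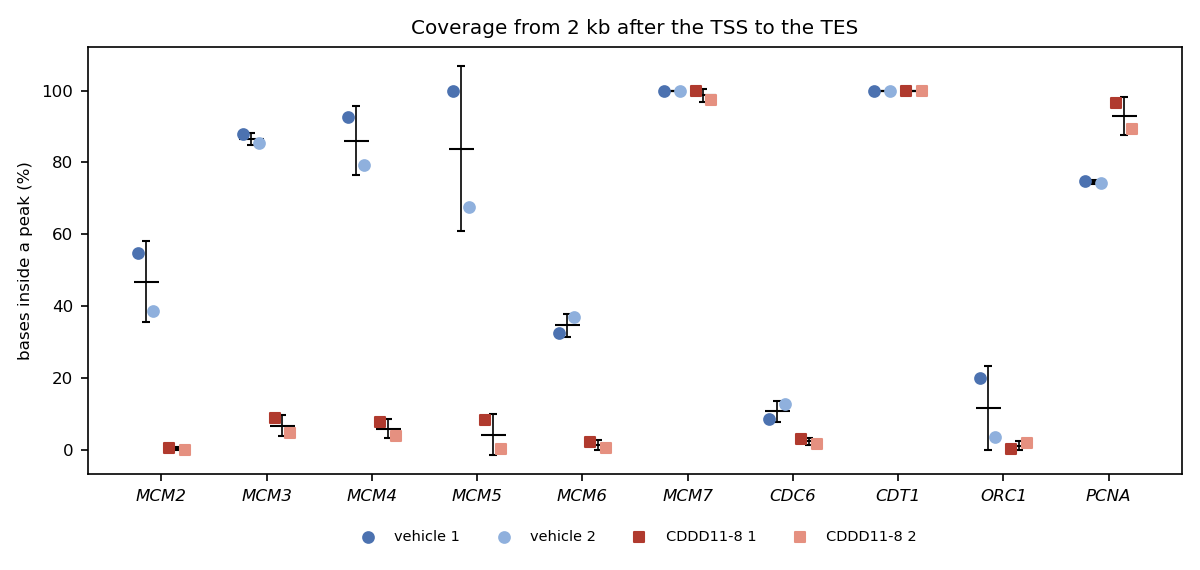
Percent of bases inside a peak between 2 kb past the TSS and the TES (vertical axis) for the 10 genes, with 1 point per library, the group mean and its SD over 2 libraries. MCM2 to MCM6 lie between 32.4% and 100% in vehicle and at 8.69% or less with CDDD11-8, MCM7 and CDT1 remain near 100%, and PCNA lies higher.

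Of the loading factors, CDC6 (chr17:38444131-38460909, plus strand) was covered over 8.49% and 12.7% of the stretch in vehicle and 2.89% and 1.64% with CDDD11-8. ORC1 (chr1:52838501-52870095, minus strand) was covered over 19.95% and 3.41% in vehicle and 0.223% and 1.91% with CDDD11-8. Both started from low coverage, and in ORC1 the vehicle libraries differed from each other by more than the second of them differed from CDDD11-8. CDT1 (chr16:88870197-88875666, plus strand) was covered over 100% in all 4 libraries.

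Coverage was also read by distance from the TSS. Between 1 and 2 kb, MCM6 was covered over 64.1% and 85.7% in vehicle and over 100% in both CDDD11-8 libraries, and CDC6 over 68.7% and 74.5% against 100% in both. Between 2 and 5 kb, the CDDD11-8 libraries still covered 54.6% and 28.9% of MCM3 and 38.6% and 19.7% of MCM4. Between 5 kb and the TES, no base of MCM2, MCM3, MCM4, MCM6, CDC6 or ORC1 lay in a peak in either CDDD11-8 library. In vehicle, MCM3 was covered over 86.6% and 75.7% of the bases between 5 and 10 kb, and MCM4 over 100% and 86.7%. CDC6 had none between 5 and 10 kb in vehicle either, and its vehicle coverage lay in the last part of the gene, at 14.1% and 27.8% beyond 10 kb. MCM5 held 1 peak of CDDD11-8 replicate 1 beyond 20 kb, where 7.65% of the bases were covered.

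**Figure D3:**
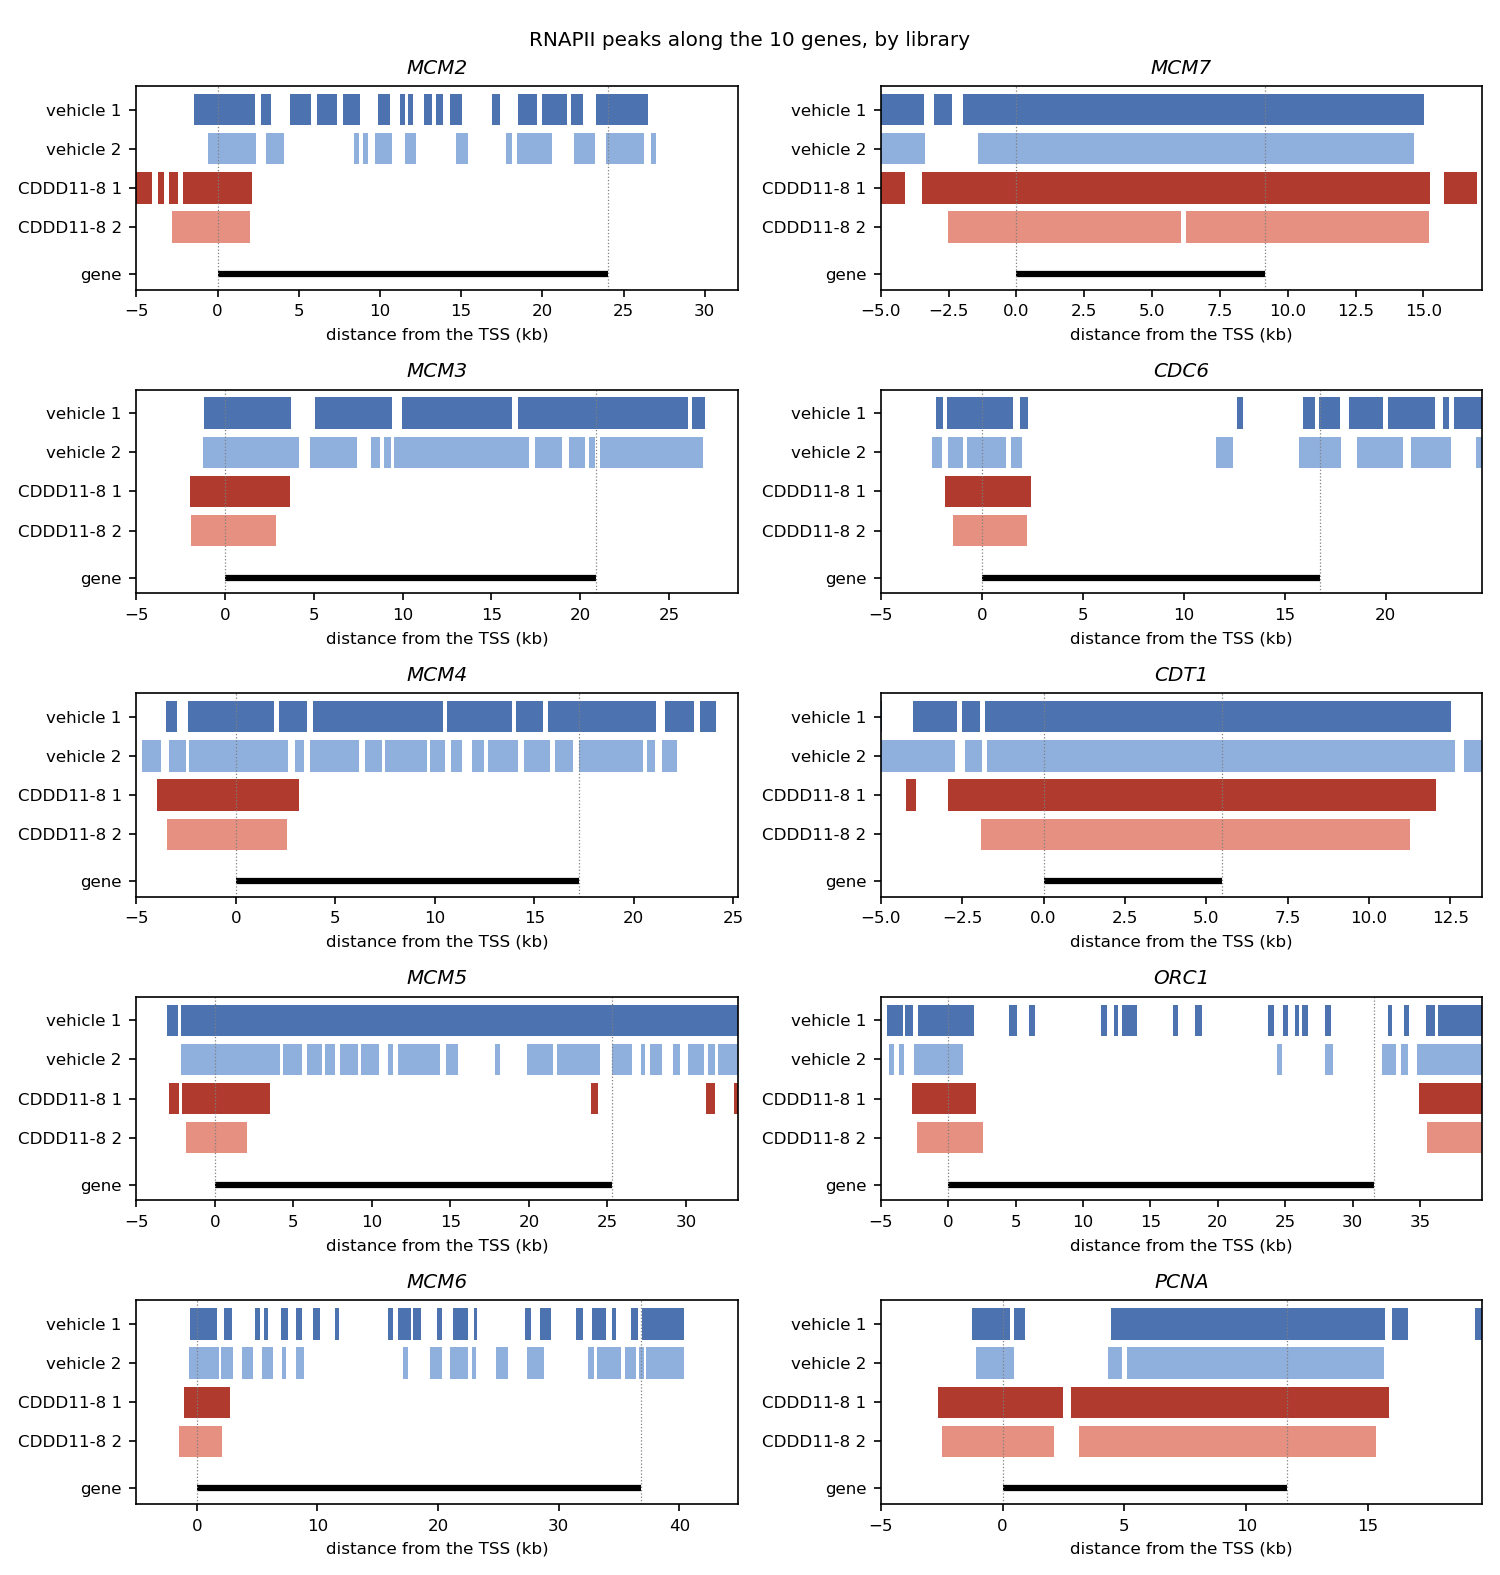
RNAPII peaks (coloured bars) of each library along the 10 genes (black bar), by distance from the TSS in kb, with dotted lines at the TSS and the TES. In MCM2 to MCM6, CDC6 and ORC1 the CDDD11-8 bars inside the gene end within 5 kb of the TSS, apart from 1 peak in MCM5, while vehicle bars are present past the TES.

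The summits that the peak caller placed in each gene were also counted. From 2 kb to the TES, MCM3 held 26 and 28 summits in vehicle and 2 and 1 with CDDD11-8. MCM6 held 22 and 23 in vehicle and 1 and 0 with CDDD11-8, and MCM2 24 and 13 against 0 in both. MCM7 held 10 and 11 summits in vehicle and 11 and 10 with CDDD11-8, and the numbers in CDT1 and PCNA likewise overlapped or were equal. The positions of these summits were not matched between treatments. The highest of them in MCM7 had a fold enrichment of 14.4 and 10.8 in vehicle and 8.37 and 7.05 with CDDD11-8. Pileup, from which fold enrichment is formed, is scaled differently from list to list. How far this enters fold enrichment was not tested, so these values are not read as a change between treatments.

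Beyond the TES, RNAPII that has passed the cleavage site normally continues until it terminates. The 3 kb after the TES were covered less with CDDD11-8 in the same 7 of the 10 genes, against 39.7% of all genes, and in each of the 7 the coverage was 0% in both CDDD11-8 libraries. In vehicle these 3 kb were covered over 100% and 98.4% in MCM4, over 96.4% and 93.8% in MCM6 and over 86.4% and 73.4% in CDC6. Here CDC6, whose gene body was thinly covered, resembled the helicase genes. ORC1 was the least covered of the 7 in vehicle, at 23.7% and 54.1%. MCM7, CDT1 and PCNA were covered over 100% in all 4 libraries, but 80.3% of this window lies in another protein-coding gene for MCM7, 86.3% for CDT1 and 37.8% for PCNA.

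Of the 10 genes, 8 were covered from 2 kb to the TES over at least 25% in both vehicle libraries. Coverage was lower with CDDD11-8 in 5 of the 8, against 64.2% of the 2609 genes of the genome above that limit, a share close to that of other well covered genes. Coverage of at most 10% in both CDDD11-8 libraries was reached by 5 of the 8 (MCM2 to MCM6), against 22.7% of those genes. Both limits were set after the values had been seen. MCM7, CDT1 and PCNA are the other 3 of the 8. Each has another protein-coding gene within 3 kb of its TES, as does MCM6, which is among the 5.

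**Figure D4:**
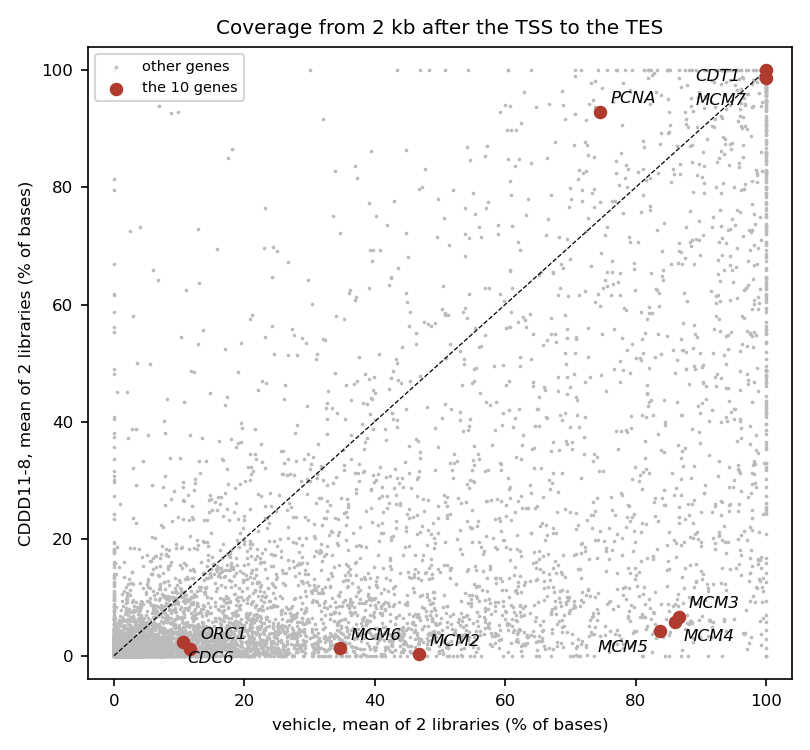
Mean coverage between 2 kb past the TSS and the TES in vehicle (horizontal axis) and CDDD11-8 (vertical axis), in percent of bases, for 9208 genes, each a grey point, with the 10 genes in red and a dashed line of equal coverage. MCM3, MCM4 and MCM5 lie at the lower right, with over 80% in vehicle and under 10% with CDDD11-8, where few genes lie.

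Because the vehicle lists are longer, each list was also held to its 21842 peaks of highest −log10 q-value, the length of the shortest. Gene body coverage was then lower in 6 of the 10 genes, against 28.0% of all genes, and coverage from 2 kb to the TES in 5 (MCM2 to MCM6), against 22.8%. After the TES it was lower in 6, against 24.0%. The gap narrowed most in MCM2, with 11.7% and 16.5% from 2 kb to the TES in vehicle, and in MCM6, with 3.72% and 14.0%. It hardly moved in MCM3, with 87.8% and 78.5% in vehicle. ORC1 no longer differed, with a gene body coverage of 5.96% and 2.27% in vehicle against 5.15% and 6.60% with CDDD11-8 and no coverage after its TES in any library. CDC6 overlapped from 2 kb to the TES, with 2.52% and 7.16% in vehicle against 2.89% and 1.64%, while the values for the 3 kb after its TES were those given above. Restricting the lists to a −log10 q-value of at least 5 likewise ended the separation of ORC1 in the gene body and after the TES, and that of CDC6 from 2 kb to the TES.

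MCM7, CDT1 and PCNA remained covered along most of their length, so the heights of the summits inside each list were compared for them, a measure added after the values had been seen. It sets the highest fold enrichment within 1 kb of the TSS over the highest between 2 kb and the TES, as a log2 ratio, and could be formed in all 4 libraries for 5 of the 10 genes. It was higher with CDDD11-8 in 5 of the 5, against 79.3% of all genes with a value. The 5 include PCNA by its longest isoform, whereas its canonical isoform overlapped between treatments. In MCM7, the log2 ratio was -0.79 and 0.33 in vehicle and 2.13 and 1.99 with CDDD11-8. In CDT1, it was -0.51 and -0.14 in vehicle and 1.19 and 1.36 with CDDD11-8. In vehicle the highest summit thus lay within the gene in 3 of these 4 values, and with CDDD11-8 it lay at the start in all 4.

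The same log2 ratio was 0.43 and 1.30 in vehicle and 2.52 and 2.63 with CDDD11-8 in MCM3, and 0.01 and 1.42 against 2.95 and 3.01 in MCM4. The ratio formed from whole peaks, which needs a peak in the gene body separate from the promoter peak, could be taken in all libraries for 1 of the 10 genes only, PCNA, and was higher there, against 62.9% of all genes with a value. That PCNA value is from the longest isoform, whose promoter peak lies at the start of the divergent gene CDS2. Its gene body peak spans the canonical PCNA start, 6668 bp further along. The value thus does not set the canonical PCNA start over the PCNA gene body. Most members dropped out of the whole-peak ratio because no separate gene body peak was left with CDDD11-8: MCM2 had 15 and 11 such peaks in vehicle, MCM6 20 and 16, and both had 0 in each CDDD11-8 library.

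**Figure D5:**
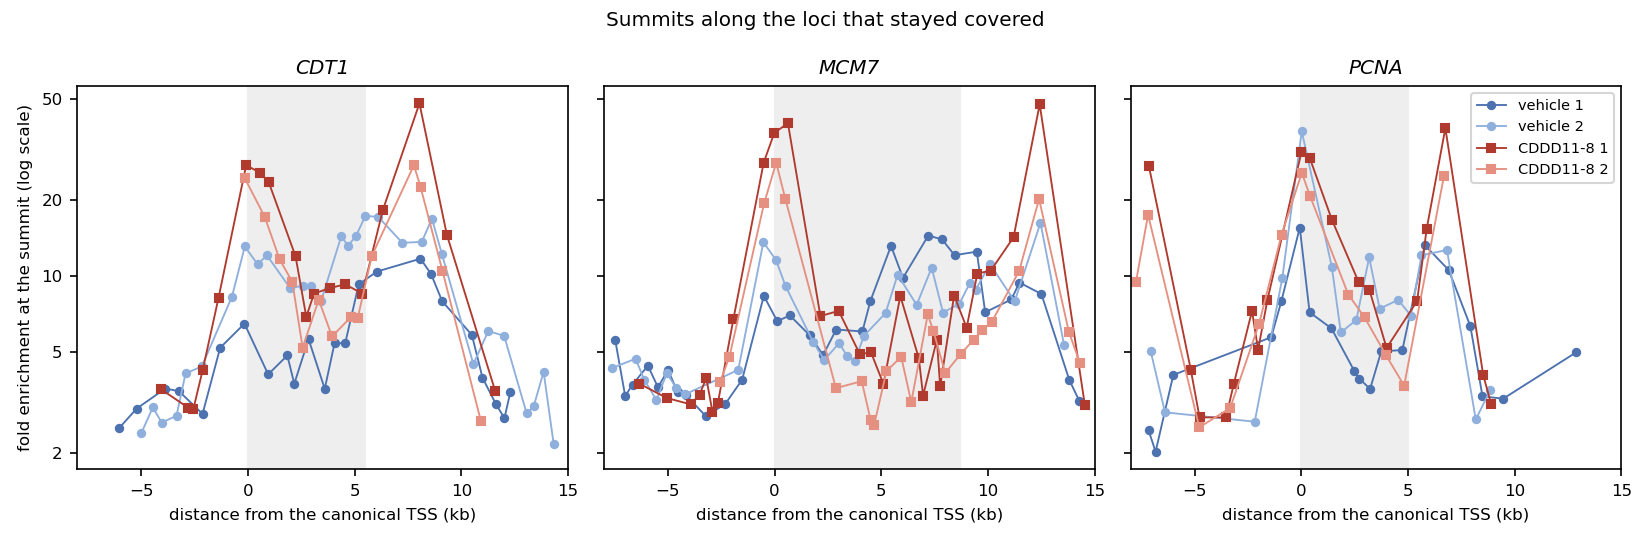
Fold enrichment of each summit (vertical axis, log scale) by distance from the canonical TSS in kb along CDT1, MCM7 and PCNA, with the gene shaded and 1 line per library joining its summits. With CDDD11-8 the summits rise steeply at the TSS and again beyond the end of each gene, with a trough between, whereas the vehicle lines of CDT1 and MCM7 rise towards the end of the gene.

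The far peaks of these loci lie at the starts of other genes. The gene APRT, which encodes adenine phosphoribosyltransferase, is transcribed towards CDT1 and starts 8139 bp after the TSS of CDT1. CDDD11-8 summits near that start lay 8038 and 7778 bp after the TSS of CDT1, with fold enrichments of 47.9 and 27.3 over the local background. COPS6, a subunit gene of the COP9 signalosome, starts beyond the end of MCM7 on the other strand. The CDDD11-8 summits there lay 12424 and 12395 bp after the canonical TSS of MCM7, with fold enrichments of 47.6 and 20.1. Coverage of the ends of CDT1 and MCM7 in the CDDD11-8 libraries therefore includes the promoter peaks of their neighbours. The part of those neighbours in the values of CDT1 and MCM7 was not tested.

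PCNA depends on which start is used. Its longest isoform (chr20:5095599-5107272, minus strand) begins 6668 bp upstream of the canonical one, and 382 bp from the start of the divergent gene CDS2. With the longest isoform, its promoter percentile was 3.86 and 14.0 in vehicle and 50.9 and 49.8 with CDDD11-8, and its gene body was covered over 74.3% and 72.01% in vehicle and 97.7% and 92.8% with CDDD11-8. These higher values describe a start in the promoter region of CDS2, where the peak measured 1529 and 1585 bp in vehicle and 5147 and 4573 bp with CDDD11-8. With the canonical isoform, 5006 bp long, the promoter percentile was 94.3 and 99.8 in vehicle and 80.1 and 80.6 with CDDD11-8. In CDDD11-8 replicate 1 this percentile is that of a summit 6753 bp after the canonical TSS, near the start of TMEM230, with a fold enrichment of 38.3. The highest summit within 1 kb of the canonical TSS had a fold enrichment of 30.9 in that library. The canonical gene body was covered over 100% in all 4 libraries. The canonical log2 summit ratio was 1.60 and 1.65 in vehicle and 1.71 and 1.60 with CDDD11-8, an overlap that differs from MCM7 and CDT1. TMEM230 starts 1866 bp after the TES of PCNA, and a CDDD11-8 summit lay there in both libraries, with fold enrichments of 38.3 and 24.9.

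Several members share a promoter region with a gene on the other strand, and those partners did not all go the same way. PRKDC, the catalytic subunit of the DNA-dependent protein kinase, starts 800 bp from MCM4. It was covered from 2 kb to the TES over 16.0% and 4.79% in vehicle and 0.641% and 0.355% with CDDD11-8, lower as in MCM4. PRPF38A, a splicing factor gene that starts 179 bp from ORC1, was covered over 55.2% and 30.04% in vehicle and 3.51% and 0.843% with CDDD11-8. By contrast, TPRA1, which starts 144 bp from MCM2, was covered over 7.84% and 9.98% in vehicle and 27.0% and 19.2% with CDDD11-8, higher where MCM2 was lower. Most of this coverage with CDDD11-8 lay in a single peak inside TPRA1, at chr3:127307025-127311334 and chr3:127307044-127311184 in the libraries. The vehicle coverage lay in a shorter peak at the same place. The higher values thus come mostly from a longer peak, and most of TPRA1 stayed outside peaks. AP4M1, which overlaps the start of MCM7, was covered over 88.2% and 75.1% in vehicle and 51.7% and 12.2% with CDDD11-8. LCT, the lactase gene downstream of MCM6, was covered over 5.34% and 1.33% in vehicle and 0.851% and 0% with CDDD11-8. CDS2, beside the longest PCNA isoform, was covered over 0% in both vehicle libraries and 0.399% and 0.151% with CDDD11-8, higher but almost bare. TMEM230 overlapped between treatments, at 3.44% and 0.300% in vehicle and 0.789% and 0% with CDDD11-8, and COPS6 was covered over 100% in all 4 libraries. Of the 8 neighbours with a value, 4 were thus lower without overlap, near the 42.2% of all genes, and 2 were higher (TPRA1 and CDS2). LCT, among the 4, had no promoter peak with CDDD11-8 and so lies outside the genes behind that share.

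The licensing genes were set beside 50 other replication genes, such as the remaining ORC subunits, the GINS complex, replication factor C, replication protein A and the DNA polymerases. Of these, 48 had a promoter peak in every library. Gene body coverage was lower with CDDD11-8 in 35 of the 48 (72.9%), against 45.3% of all genes, and higher in 5 (10.4%), against 21.5%. With equal numbers of peaks it was lower in 26 of the 48 (54.2%), against 28.0%. The 3 kb after the TES were covered less in 28 (58.3%), against 39.7%. The promoter peak was wider in 33 (68.8%), a share close to the 64.4% of all genes, and narrower in 3 (6.25%), against 9.42%. Among the 17 that were covered over at least 25% from 2 kb to the TES in both vehicle libraries, 12 (70.6%) were at most at 10% in both CDDD11-8 libraries, as were MCM2 to MCM6, against 22.7% of all such genes.

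The largest drops of the list in mean gene body coverage were in RPA2, RFC5 and LIG1. RPA2, a subunit of the single-strand binding protein RPA, was covered over 89.9% and 70.5% in vehicle and 12.01% and 14.1% with CDDD11-8. RFC5, a subunit of the clamp loader that places PCNA on DNA, was covered over 80.0% and 71.5% in vehicle and 11.8% and 10.53% with CDDD11-8. LIG1, the ligase that joins Okazaki fragments, was covered over 81.6% and 48.0% in vehicle and 4.80% and 4.17% with CDDD11-8. The largest increases without overlap were in GINS2, RFC1 and ORC5. GINS2, a subunit of the GINS complex that activates the loaded MCM ring, was covered over 79.3% and 75.9% in vehicle and 94.7% and 92.9% with CDDD11-8. RFC1, the large clamp loader subunit, was covered over 0.757% and 1.16% in vehicle and 2.41% and 2.21% with CDDD11-8. ORC5 was covered over 0.670% and 1.07% in vehicle and 2.61% and 1.54% with CDDD11-8. Apart from GINS2, these increases were within genes almost without peaks.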

How the data were processed

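RNAPII ChIP-seq lists of 4 libraries (vehicle and CDDD11-8, 2 each) were analysed, and the 4 input libraries only through the authors' peak calling. Reads were aligned by the authors to GRCh37 with Bowtie2, and peaks were called per library with MACS2, whose versions are not given in the sources used here. The deposited pileup is a signal, the deposited fold enrichment is the ratio of this pileup to a local background estimate, and the deposited p-value and q-value are on the −log10 scale, with a smallest q of 2.00. Replicates were not pooled. Pileup was whole in 100% of summits in vehicle but in 0.323% and 3.36% in CDDD11-8, so pileup was scaled differently between lists. How far this scaling enters fold enrichment was not tested, and fold enrichment was compared only within a list. Longer lists raise coverage, and without read counts the depth is unknown and no interval can be given.

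Summits sharing a region were joined into 1 peak. A promoter was 300 bp either side of the TSS, overlapped by at least 1 bp. Genes tested for gene body coverage were at least 1 kb long with a promoter peak in every library, and those for the stretch from 2 kb at least 3 kb. Groups were compared by whether their libraries overlapped, with the exact two-sided permutation test over 6 splits. The members and lists were chosen with earlier results of these data known, and the 25% and 10% limits, the summit measures and the backgrounds that go with them or with equal numbers of peaks were added after values had been seen. Named genes were the 10 members, neighbours within 3 kb, and up to 3 of the other replication genes with the largest drop and rise without overlap. Promoter peak width, its downstream edge, the whole-peak ratio, gene body coverage and coverage from 2 kb recovered all values planted in simulated peaks. These peaks were planted at genes far from other genes. The percentiles, coverage after the TES and the summit measures were not checked in this way. Python 3.11.15 was used with scipy 1.17.1, pandas 2.3.3, numpy 2.4.6 and, for plots, matplotlib 3.10.9.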

Additional observations from a re-analysis of the deposited data

How the results depend on the processing

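The counts of members were recomputed with canonical isoforms, equal numbers of peaks, a stricter q-value (−log10 of 5 or more), peaks within 1 kb joined, other windows, other scores, each library left out and a replicate block. Of these recomputed counts, 80 stayed within 1.5 times the value reported and 15 did not, and all counts of lower coverage in the gene body, beyond 2 kb and after the TES were among the 80. The count of genes with a higher promoter percentile, 1 as reported, was 0 with equal numbers of peaks and with canonical isoforms, 2 with peaks joined, 2 to 3 with each library left out in turn and 3 with the replicate block. The count with a higher promoter to gene body ratio, also 1, was 0 with equal numbers of peaks, canonical isoforms or peaks joined, 5 from summits and 4 from summits and canonical isoforms, both added after the data were seen. The count with higher gene body coverage was 0 with canonical isoforms, and that with a wider promoter peak was 2 with peaks joined, with 5 narrower. For single genes, CDDD11-8 minus vehicle turned to 1.76 percentage points in the gene body and 0.299 beyond 2 kb for ORC1 with equal numbers of peaks. It turned to -16.7 percentiles for PCNA with the canonical isoform, where the CDDD11-8 replicate 1 value is that of the summit near TMEM230. With peaks joined, it turned to widths of -20684 bp in MCM4, -2783 bp in MCM6, -555 bp in CDC6 and -1159 bp in ORC1.

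The labels do not say that a replicate number marks a shared passage. Across genes, the difference between replicates in vehicle and that in CDDD11-8 correlated at -0.0732 for gene body coverage and -0.0232 for promoter width, which leaves unknown whether same-numbered libraries shared a passage, and they were not treated as pairs. Within same-numbered libraries, MCM2 and MCM4 had a higher percentile with CDDD11-8 beside PCNA, which gives the 3 under the block. The replicate block moved no other count by over 1.5 times, and its smallest exact sign-flip p is 0.5. A list that ends at a q-value threshold limits what can be said of weak signal: a base outside a peak is not a base without RNAPII.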

Other observations

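Some genes of nucleotide supply, which provide the building blocks of the DNA that licensed origins copy, were named after their values were seen and are given as a description. DUT, which removes dUTP, was covered over 93.5% and 95.9% of its gene body in vehicle and 29.4% and 28.5% with CDDD11-8. RRM2, the small subunit of ribonucleotide reductase, was covered over 100% in both vehicle libraries and over 42.1% and 44.6% with CDDD11-8. CTPS1, which makes CTP, was covered over 24.3% and 7.30% in vehicle and 6.94% and 6.55% with CDDD11-8. In each of these genes both CDDD11-8 libraries lay below both vehicle libraries. The list they come from holds 10 genes, and gene body coverage was lower in all 10, against 45.3% of all genes tested. With equal numbers of peaks it was lower in 8 of the 10, against 28.0%. The gap was wide in DUT and RRM2, and in CTPS1 the vehicle libraries differed from each other by more than the lower of them differed from CDDD11-8.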
